A study of Mus musculus with 44 samples.

Results

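The data are RNA levels of 10 interferon-inducible GTPase genes in mouse back skin, measured by RNA-seq in a bleomycin model of skin fibrosis. The genes were listed by name: the guanylate-binding proteins (GBPs) Gbp2, Gbp3, Gbp4, Gbp5, Gbp6 and Gbp7, and the immunity-related GTPases (IRGs) Irgm1, Irgm2, Igtp and Iigp1. All 10 were found among the 43411 genes of the table, and all 10 passed the filter on low values that 17037 genes passed. Whole-skin RNA came from 44 female C57Bl/6 mice, 8 weeks old at the start, for which the study names no mutation or transgene. The saline group (n = 10) received daily subcutaneous saline. The bleo_2wk (n = 10) and bleo_4wk (n = 10) groups received bleomycin, a DNA-damaging drug that brings on fibrosis where it is injected, at 100 µL of 1 U/mL per day for 2 or 4 weeks. That concentration is from the study's methods, and a figure legend in its supplement gives a lower one. The recv_6wk (n = 6) and recv_10wk (n = 8) groups received 4 weeks of bleomycin and were then left untreated for 6 or 10 weeks. The time at which the saline mice were taken is not given in the sources used here, so the age of the recovery mice and their group cannot be told apart in comparisons with saline.

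Interferon-gamma, secreted mainly by T cells and natural killer (NK) cells, binds a receptor that signals through JAK kinases. Its target genes are reached through short DNA elements, the gamma-activated sites (GAS) and the interferon-stimulated response elements (ISRE), of which the latter also serve type I interferon and are bound by IRF1 and its relatives. GBPs and IRGs are among the most strongly induced targets in mouse cells, and both interferon types can raise them. GBPs are large GTPases of the dynamin superfamily that assemble on pathogen vacuoles and bacteria and feed inflammasome activation. Among the IRGs, Iigp1 is an effector that loads onto vacuole membranes, and Irgm1, Irgm2 and Igtp are regulators that sit on host membranes and restrain the effectors.

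The genes lie in clusters, given here on GRCm38 (the deposited values were made on mm10, the same assembly). On chromosome 3 are Gbp5 (chr3:142493978-142522344), Gbp7 (chr3:142530342-142550149), Gbp3 (chr3:142560026-142573209) and Gbp2 (chr3:142620602-142638008), all on the plus strand. Gbp4 (chr5:105115767-105139586) and Gbp6 (chr5:105270702-105293698) are on the minus strand of chromosome 5. Irgm1 (chr11:48861968-48871683, minus strand) stands apart from the pair Igtp (chr11:58199556-58207591) and Irgm2 (chr11:58199618-58222782) on the plus strand, whose annotated exons overlap by 162 bp. Iigp1 lies outside these clusters. All are annotated as protein coding. The exons of Gbp7 overlap those of the same-strand gene Gm43802 by 637 bp. Gbp4 overlaps the same-strand genes Gbp8 and Gbp9, with at most 61 bp of shared exon. Close copies limit how exactly reads can be assigned, and how the authors counted reads shared between genes is not given in the sources used here. Of the 50-base windows in the annotated transcripts of Gbp6, 70.7% also occur in another gene, most often Gm43302, a same-strand gene that overlaps Gbp6, so the level of Gbp6 is uncertain. The same share was 12.7% for Gbp7, 11.8% for Igtp, 7.83% for Irgm2 and 7.78% for Gbp4, and between 0.379% and 3.75% for the other 5 genes.

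The sequences upstream of the genes show what they share outside of their RNA levels. RefSeq (GRCm38.p6) windows from 250 bases before to 50 bases after a transcription start were at hand for 7 of the 10 genes, with 2 windows for Gbp3. Both strands were searched for the ISRE letters (GAAA, any 2 bases, then GAAA) and the GAS letters TTCNNNGAA, and a base may belong to matches of both. The ISRE letters were found for 7 of 7 genes, in 7 of their 8 windows, and in 3.44% of all 32851 windows. The GAS letters were found for 4 of 7 genes, Gbp5, Gbp7, Igtp and Irgm2, and in 8.3% of all windows. Both together were found for these 4 genes and in 0.454% of all windows. The 250 upstream bases are printed for 6 genes: Gbp3 and Gbp2, which had the largest and smallest changes of the GBPs, Gbp7 with matches to both patterns, and the 3 regulators. Capitals mark the matches, and an ISRE match on the opposite strand reads TTTC, any 2 bases, then TTTC.
Gbp2 (chr3:142620413-142620662, plus strand): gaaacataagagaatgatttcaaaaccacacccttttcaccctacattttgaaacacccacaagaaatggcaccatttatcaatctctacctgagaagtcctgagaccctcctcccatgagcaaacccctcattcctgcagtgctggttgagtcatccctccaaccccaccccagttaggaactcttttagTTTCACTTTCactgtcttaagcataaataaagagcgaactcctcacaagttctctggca
Gbp3 (chr3:142559794-142560043, plus strand): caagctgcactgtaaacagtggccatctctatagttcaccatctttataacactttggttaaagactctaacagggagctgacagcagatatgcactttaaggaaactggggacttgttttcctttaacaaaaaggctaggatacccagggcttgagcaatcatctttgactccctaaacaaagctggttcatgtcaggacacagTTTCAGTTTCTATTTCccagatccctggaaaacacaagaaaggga
Gbp7 (chr3:142530086-142530335, plus strand): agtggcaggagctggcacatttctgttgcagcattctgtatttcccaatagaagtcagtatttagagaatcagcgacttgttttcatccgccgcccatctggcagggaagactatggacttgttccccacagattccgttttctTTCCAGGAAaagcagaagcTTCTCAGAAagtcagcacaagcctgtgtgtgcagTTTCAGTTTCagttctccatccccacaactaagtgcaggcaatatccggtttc
Igtp (chr11:58199306-58199555, plus strand): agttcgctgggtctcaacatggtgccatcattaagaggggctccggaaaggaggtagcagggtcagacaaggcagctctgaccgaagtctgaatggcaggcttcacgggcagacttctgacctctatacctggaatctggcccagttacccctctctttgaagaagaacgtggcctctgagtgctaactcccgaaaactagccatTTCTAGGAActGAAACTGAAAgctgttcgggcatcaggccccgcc
Irgm2 (chr11:58214727-58214976, plus strand): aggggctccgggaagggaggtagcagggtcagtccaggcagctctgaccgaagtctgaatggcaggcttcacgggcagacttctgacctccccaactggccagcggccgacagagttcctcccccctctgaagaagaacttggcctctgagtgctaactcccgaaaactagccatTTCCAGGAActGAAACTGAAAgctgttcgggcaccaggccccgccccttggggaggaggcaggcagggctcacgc
Irgm1 (chr11:48871421-48871670, minus strand): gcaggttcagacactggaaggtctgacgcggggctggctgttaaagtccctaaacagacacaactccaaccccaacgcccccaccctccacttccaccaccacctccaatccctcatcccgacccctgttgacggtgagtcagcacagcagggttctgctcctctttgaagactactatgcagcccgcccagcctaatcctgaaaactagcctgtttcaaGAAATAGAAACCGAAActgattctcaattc
Counted back from the start, the ISRE match spans bases -59 to -50 in Gbp2 and -53 to -44 in Gbp7. In Gbp3 a pair of overlapping ISRE matches covers -45 to -30, and in Irgm1 a pair covers -30 to -15. In Igtp the GAS match at -45 to -37 is followed by the ISRE match at -34 to -25, and the same arrangement stands at -75 to -67 and -64 to -55 in Irgm2. Around these matches the printed letters of Igtp and Irgm2 are nearly the same, so these genes are not separate cases in the counts above. Gbp7 has GAS matches at -106 to -98 and -87 to -79. In Gbp5, not printed, the ISRE match is at -165 to -156 and the GAS matches at -245 to -237 and -52 to -44. A match describes letters only. For comparison, the ISRE letters were found for 11 of 18 type I interferon antiviral genes that have a window and 5 of 9 other GTPases of these families. They were found for 3 of 15 chemokines and effectors induced by interferon-gamma and 2 of 9 genes of its receptor and signalling. For signals that raise or carry interferon-gamma the count was 2 of 11, and for autophagy and ubiquitin partners 1 of 14. The GAS letters were found for 3, 3, 1, 4, 2 and 2 genes of these lists in the same order.

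**Figure D1:**
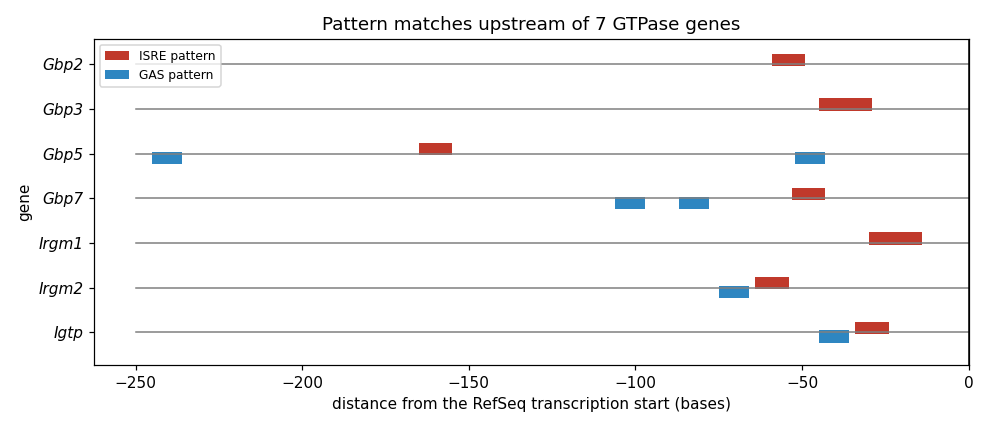
Matches to the ISRE pattern (red) and the GAS pattern (blue) in the 250 bases upstream of the RefSeq transcription start of 7 genes, with distance from the start in bases on the x axis and 1 line per gene (for Gbp3, the first of its 2 windows). Every gene has an ISRE match, and in all but Gbp5 it begins at base -64 or nearer to the start.

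Depth ranged from 8509094 to 15285577 reads per mouse, with a median of 11310008.5. Values below are normalized counts, that is, reads divided by 1 size factor per mouse. Of the mice, saline mouse 1 and bleo_2wk mouse 2 stood apart from their groups (median Spearman correlation with the rest of their group of 0.9502 and 0.9478, against 0.9634 for the next lowest mouse), and results are given with and without them where they matter. Skin markers were present throughout: the summed normalized counts of 9 keratinocyte markers ranged from 121600 to 254300 over all mice, and those of 8 skeletal muscle markers from 84700 to 380800, so muscle RNA was present too. By the rule for calls given below, 8 of 8 readable markers of growing hair were lower at both bleomycin times. Over all genes, 7.43% and 7.37% were called lower at 2 and 4 weeks. The summed hair markers were 2085 to 225900 in saline mice, 38.15 to 1964 at 2 weeks and 34.19 to 5036 at 4 weeks. Their part in the results was not tested. In whole skin, more cells of a type and more RNA per cell cannot be told apart.

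Comparing bleo_2wk with saline asks how the genes stood early in treatment. All 10 GTPase genes were higher after 2 weeks of bleomycin. A gene was called when its fold change was above 1.5 and its limma adjusted p was below 0.05 over all genes tested, and 9.3% of all genes were called higher in this comparison. The log2 fold changes ran from 1.24 to 2.17 (2.36-fold to 4.51-fold) with a median of 1.83, beside a median of 0.00 over all genes. In 8 of 10 genes the lowest bleo_2wk mouse was above the highest saline mouse, which held for 3.44% of all genes. Leaving out saline mouse 1, bleo_2wk mouse 2 or both still gave 10 of 10.

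Among the GBPs, Gbp3 changed most. Its normalized count was 103.7 to 276.2 (median 188.4) in saline mice and 591.5 to 1426 (median 835.4) at 2 weeks. The groups did not overlap, and the log2 fold change was 2.17 (SE 0.13, adjusted p = 4.74e-18). At 4 weeks Gbp3 ranged from 459.5 to 733.2 (median 556.9), in recv_6wk from 228.2 to 310.2 (median 261.8) and in recv_10wk from 184.1 to 271.4 (median 206.3). Every mouse at 4 weeks was above every saline mouse, and the recovery mice overlapped the saline range.

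Gbp2, which coats parasite vacuoles and lysed bacteria, had the smallest change. Saline mice had 343.4 to 781.7 (median 472.9) and bleo_2wk mice 773.5 to 2062 (median 1084). The ranges overlapped by a narrow margin, with 9 of 10 treated mice above the highest saline mouse, and the log2 fold change was 1.24 (SE 0.13, adjusted p = 7.91e-11). The bleo_4wk mice had 638.4 to 933.7 (median 813), the recv_6wk mice 445.1 to 614.1 (median 475.1) and the recv_10wk mice 403.9 to 615 (median 477.6). At 4 weeks 6 of 10 mice exceeded the highest saline mouse, and no recovery mouse did.

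Gbp5, a promoter of NLRP3 inflammasome assembly, was the least abundant per length. It ranged from 34.58 to 139.9 (median 78.99) in saline, 125 to 471.3 (median 241) at 2 weeks and 117.3 to 241.7 (median 198.5) at 4 weeks, and the bleomycin groups each overlapped saline by 1 mouse of 10. Its log2 fold change was 1.58 (SE 0.18, adjusted p = 2.59e-09) at 2 weeks. Gbp5 ranged from 80.19 to 152.7 in recv_6wk and from 67.05 to 119.9 in recv_10wk, within or close to the saline range.

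Gbp7 ranged from 121.6 to 295.5 (median 244.3) in saline and from 617.4 to 1094 (median 772.9) at 2 weeks, with no overlap (log2 fold change 1.79, SE 0.12, adjusted p = 3.44e-16). Gbp6 ranged from 135.9 to 340.2 (median 224.9) in saline and from 605.6 to 1437 (median 788.6) at 2 weeks, also with no overlap (log2 fold change 1.86, SE 0.14, adjusted p = 2.55e-14). For Gbp4 the saline mice had 84.65 to 273.8 (median 200.7) and the bleo_2wk mice 341.5 to 801.2 (median 447.1), a log2 fold change of 1.36 (SE 0.15, adjusted p = 4.77e-10). These 3 genes thus had every bleo_2wk mouse above every saline mouse, as 3.44% of all genes did. At 4 weeks Gbp7 (410.1 to 658.9) was still clear of saline, whereas Gbp6 (321.6 to 751.5) and Gbp4 (260 to 492) each overlapped it by 1 mouse.

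Each of the 4 IRGs was clear of saline at 2 weeks, as 3.44% of all genes were in this direction. Irgm1, whose loss leaves mice unable to control several intracellular infections, ranged from 150.2 to 396.9 (median 306.9) in saline and from 832.3 to 1829 (median 1078) at 2 weeks (log2 fold change 1.95, SE 0.12, adjusted p = 5.03e-17). The effector Iigp1 (chr18:60376027-60392634, plus strand) ranged from 131.2 to 449.9 (median 247) in saline and from 643.2 to 1546 (median 1017) at 2 weeks (log2 fold change 2.04, SE 0.16, adjusted p = 1.81e-14). The effector thus rose 4.11-fold and the regulator 3.87-fold, both with no overlap.

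Igtp, also known as Irgm3, ranged from 164.5 to 416.2 (median 232.5) in saline and from 609.1 to 1395 (median 945.5) at 2 weeks (log2 fold change 1.96, SE 0.14, adjusted p = 1.42e-15). Its overlapping neighbour Irgm2 ranged from 206.3 to 527.2 (median 329.4) in saline and from 675.1 to 1324 (median 926.3) at 2 weeks (log2 fold change 1.46, SE 0.14, adjusted p = 1.12e-11). Irgm2 had the smallest log2 fold change of the IRGs. At 4 weeks Irgm1 (710.7 to 1139), Igtp (437 to 831.9) and Iigp1 (548.4 to 1230) stayed clear of saline, while 1 Irgm2 mouse of 10 (430.1) fell within the saline range. At that time 4.31% of all genes were clear of saline in this direction.

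**Figure D2:**
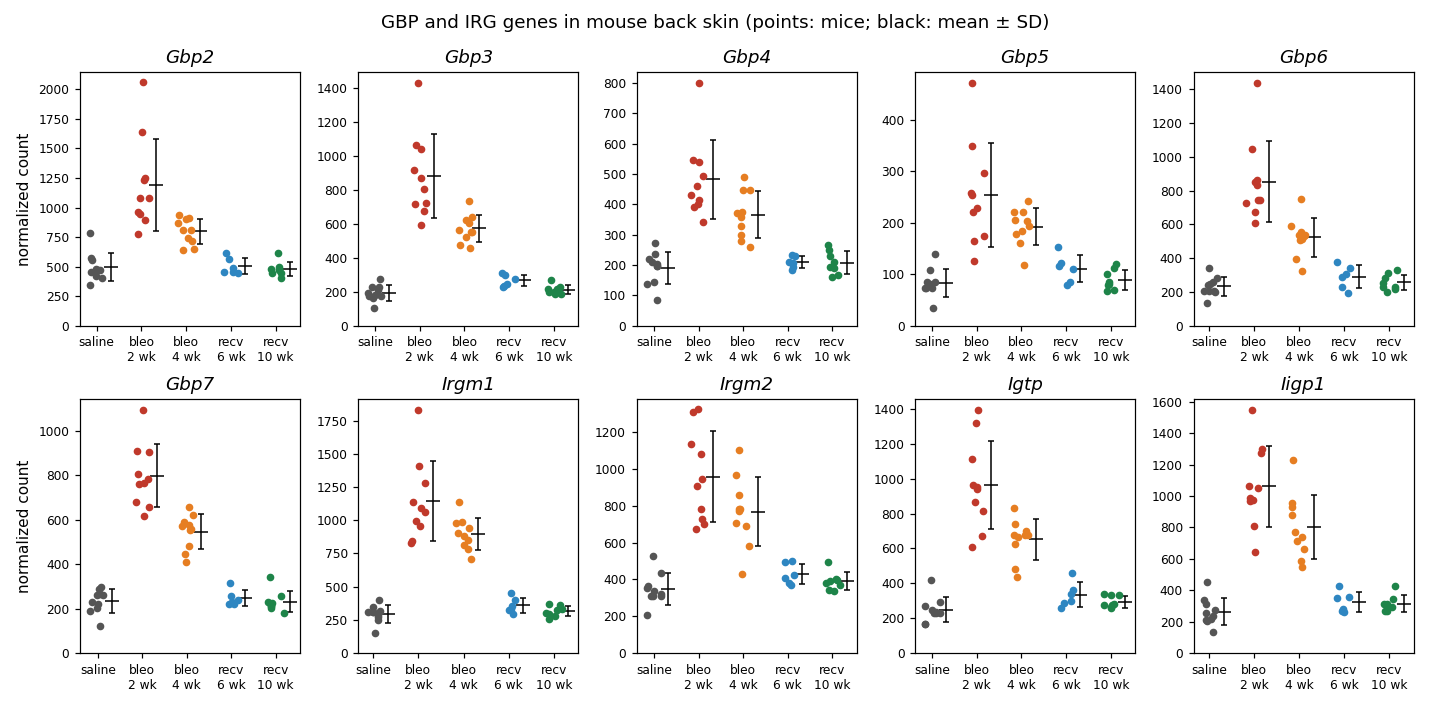
Normalized counts (y axis, linear, from 0) of the 10 genes in every mouse of the 5 groups (x axis), with the mean and SD in black beside the points. The bleo_2wk means are highest and the bleo_4wk means lie between, while the points of these groups overlap in every gene. The recovery points lie largely within the saline range. For Gbp3, saline mice had 103.7 to 276.2 and bleo_2wk mice 591.5 to 1426.

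After 4 weeks of bleomycin, the full course of treatment, all 10 genes were again called higher than in saline, beside 10.5% of all genes. The log2 fold changes ran from 0.71 (Gbp2) to 1.64 (Irgm1), which is 1.63-fold to 3.11-fold, with a median of 1.25 beside 0.00 over all genes and adjusted p-values from 1.64e-14 to 1.5e-05. Groups were apart in 5 of 10 genes, Gbp3, Gbp7, Irgm1, Igtp and Iigp1, and 4.31% of all genes were apart in this direction. The 2 and 4 week comparisons use the same saline mice. Leaving out saline mouse 1 and bleo_2wk mouse 2 kept the count at 10.

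The difference between the bleomycin times was tested directly. All 10 genes had lower means at 4 than at 2 weeks, and the log2 differences ran from -0.69 to -0.32 with a median of -0.47, beside 0.00 over all genes. Of these, 2 were called lower, beside 0.863% of all genes. Gbp6, whose reads may be shared with Gm43302, fell by 0.69 on the log2 scale (SE 0.14, adjusted p = 0.00266), with 9 of 10 bleo_4wk mice below every bleo_2wk mouse. Gbp3 fell by 0.59 (SE 0.13, adjusted p = 0.00379), just past the fold threshold, and without bleo_2wk mouse 2 its difference of -0.55 was no longer called. Gbp2 (-0.53), Gbp7 (-0.54) and Igtp (-0.54) had adjusted p-values of 0.00885, 0.00555 and 0.0136 at smaller folds. An adjusted p below 0.05 with a lower value, without a fold threshold, held for 5 of the 10 genes and 2.55% of all genes. The other 5 genes, Gbp4, Gbp5, Irgm1, Irgm2 and Iigp1, had differences from -0.41 to -0.32 and adjusted p-values from 0.112 to 0.31, and the widest 95% interval, that of Gbp5, ran from -0.70 to 0.04.

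The recovery groups address how far levels returned once treatment stopped. Against bleo_4wk, all 10 genes were called lower in recv_6wk, beside 7.14% of all genes, with log2 differences from -1.32 (Irgm1) to -0.66 (Gbp2), a median of -0.91 and adjusted p-values from 1.11e-09 to 0.00431. Groups were apart for 6 of 10 genes, beside 5.77% of all genes. In recv_10wk all 10 were again lower than in bleo_4wk, beside 9.1% of all genes, from -1.51 (Irgm1) to -0.73 (Gbp2) with a median of -1.12 and adjusted p-values from 1.43e-12 to 8.02e-05, and 6 of 10 were apart, beside 5.25%. Both comparisons use the same bleo_4wk mice.

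Against saline, 0 of 10 genes were called in recv_6wk by limma, and by edgeR or DESeq2 0 as well, where limma called 5.04% of all genes in either direction. An unadjusted p below 0.05 was found for 5 of the 10. All 10 differences were above zero, from 0.05 (Gbp2) to 0.49 (Gbp3) with a median of 0.33. The 95% intervals, not adjusted over genes, lay above zero for the 5 genes with an unadjusted p below 0.05. They were 0.19 to 0.78 for Gbp3, 0.13 to 0.77 for Igtp and 0.03 to 0.88 for Gbp5. For Irgm1 the interval was 0.03 to 0.60 and for Irgm2 0.01 to 0.65, so 0 calls leave room for a difference. Gbp3 alone had an adjusted p below 0.05 (0.0272), at 1.40-fold, as 9.08% of all genes did in either direction. The next smallest was that of Igtp (0.0638). In recv_10wk 0 of 10 were called, beside 3.05% of all genes, with differences from -0.02 (Gbp2) to 0.31 (Iigp1), a median of 0.16 and adjusted p-values from 0.275 to 0.99. Gbp3, at 0.17, had an interval of -0.11 to 0.44. Between the recovery groups 0 of 10 were called, beside 0.088% of all genes, and the differences ran from -0.32 (Gbp3) to -0.02 (Gbp4). In limma 0 and 1 of the 10 had an unadjusted p below 0.05 in these last comparisons, and edgeR and DESeq2 called 0 in both.

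**Figure D3:**
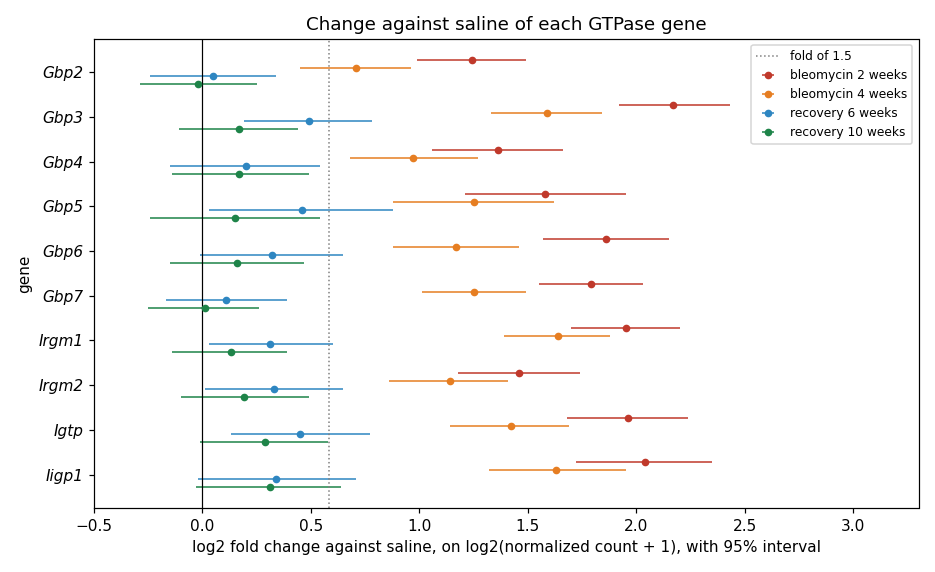
Log2 fold change against saline of each gene (x axis, on log2(normalized count + 1)) with its 95% interval, for 2 and 4 weeks of bleomycin and 6 and 10 weeks of recovery. The bleomycin estimates all lie right of the dotted line at a fold of 1.5 and the recovery estimates all left of it, with Gbp3 highest at 2 weeks (2.17) and Gbp2 lowest (1.24).

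The order of the genes by level was led by Gbp2 and Igtp in every group. On a per-length scale, as the mean normalized count per kb of annotated exon, Gbp2 was highest in saline at 197.3 ± 47.93 (SD, n = 10), followed by Igtp at 122.5 ± 35.16, Irgm2 at 94.26 ± 23.16 and Gbp3 at 59.3 ± 14.15. Gbp5 was lowest at 12.49 ± 4.059, below Gbp4 at 25.42 ± 7.211. At 2 weeks Igtp at 476.7 ± 125.2 per kb stood level with Gbp2 at 474.5 ± 154.7, well within their spread. At 4 weeks Igtp, at 322.1 ± 57.19, and Gbp2, at 317.5 ± 42.91, were again within their spread of each other. In both recovery groups the order was led by Gbp2, then Igtp, Irgm2 and Gbp3, as in saline, and Gbp5 was lowest in every group. Other neighbours, such as Irgm1 and Iigp1 in saline (50.66 ± 11.11 and 45.22 ± 15.04), also differed by less than their SDs.

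The ratio of each gene to Gbp2 in the same mouse shows the change in makeup without the size factors. Gbp2 was taken as the base after its small change had been seen, so these values are a description. The Gbp3 to Gbp2 ratio of normalized counts was 0.302 to 0.444 in saline, 0.545 to 0.949 at 2 weeks and 0.635 to 0.892 at 4 weeks, so 10 of 10 mice at each time were above every saline mouse. It was 0.491 to 0.560 in recv_6wk, where 6 of 6 mice were still above every saline mouse, and 0.356 to 0.566 in recv_10wk, where 4 of 8 were. The Irgm1 to Gbp2 ratio was 0.438 to 0.671 in saline, 0.859 to 1.11 at 2 weeks and 1.04 to 1.38 at 4 weeks, again without overlap. The Igtp to Gbp2 ratio was above every saline mouse in 10 of 10, 10 of 10, 6 of 6 and 6 of 8 mice of the 4 other groups in order. The Gbp4 to Gbp2 ratio, in contrast, overlapped saline at both bleomycin times, with 0 of 10 and 1 of 10 mice above the saline range.

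Most pairs of the 10 genes also varied together between mice of the same group. After the group means were taken off the log2 values, Pearson's r over the 44 mice had a median of 0.76 over the 45 pairs of genes, from 0.55 (Gbp2 and Gbp7) to 0.88 (Gbp2 and Igtp), and a median of 0.74 without saline mouse 1 and bleo_2wk mouse 2. Within single groups the median was 0.88 in saline, 0.76 in bleo_2wk, 0.80 in bleo_4wk, 0.81 in recv_6wk and 0.62 in recv_10wk. Single pairs were much lower, down to 0.21 in bleo_2wk (Gbp3 and Irgm2), 0.08 in recv_6wk (Gbp3 and Gbp4, 6 mice) and -0.33 in recv_10wk (Gbp2 and Gbp4, 8 mice). Points share a library, so depth and tissue makeup are shared as well. Saline mouse 5 was highest and saline mouse 1 lowest of their group in 10 of 10 genes. Likewise bleo_2wk mouse 4 was highest of its group in 10 of 10 genes, and bleo_4wk mouse 3 was lowest in 9 of 10. In recv_6wk, mouse 5 was highest in 8 of 10.

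**Figure D4:**
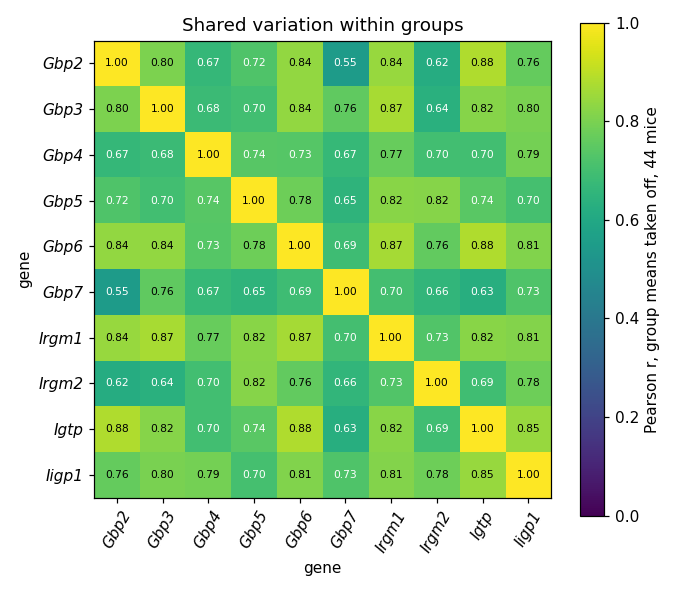
Pearson's r between the log2 values of each pair of the 10 genes (both axes) over 44 mice after group means were taken off, with the color scale from 0 to 1. The pairs run from 0.55 for Gbp2 and Gbp7 to 0.88 for Gbp2 and Igtp.

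By the same measure, the genes outside the 10 most like their mean z-score included Tgtp2 (r = 0.90), another IRG, the ADP-ribosyltransferase genes Parp14 (0.82) and Parp9 (0.80), Mndal (0.79), Phf11d (0.78), Dtx3l, whose product partners PARP9 (0.77), Ifi208 (0.77), the antiviral gene Ifit2 (0.77) and Gbp9 (0.76), out of 17027 genes ranked over 44 mice. Without saline mouse 1 and bleo_2wk mouse 2 these r values were 0.70 to 0.90. Tgtp2 averaged 170.8 in saline, 687.1 at 2 weeks, 506.4 at 4 weeks, 218.3 in recv_6wk and 191.4 in recv_10wk.

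Of 18 other GBPs, IRGs and large inducible GTPases in the table, 15 were called higher at 2 weeks (median log2 fold change 1.87) and 15 at 4 weeks (median 1.36). The shares of all genes called higher were 9.3% and 10.5%. Some had low means in saline: the IRG gene Gm4841 went from a mean of 6.005 to 644.4 at 2 weeks (log2 fold change 6.53, adjusted p = 2.15e-18), F830016B08Rik from 7.02 to 259.1 (4.89), Gbp10 from 11.76 to 197.8 (4.01) and Gm12250, also called Irgb10, from 20.27 to 130.1 (2.63). Gbp2b, named after its values were seen, went the other way. It ranged from 10.3 to 53.08 in saline, from 12.34 to 96.24 at 2 weeks and from 1.068 to 10.07 at 4 weeks, so that its 4 week mice were all below its saline mice (log2 fold change -1.91, SE 0.35, adjusted p = 2.28e-05), and it was higher in recv_10wk (14.25 to 33.68) than at 4 weeks (1.93, adjusted p = 5.75e-05). At 2 weeks its change was 0.29 (adjusted p = 0.554). Gbp2b shares 50-base windows with Gbp2, 2.03% of those of Gbp2. In recv_6wk 1 gene of the list was called above saline, Gm4841 (1.36, adjusted p = 0.0358), and 0 without saline mouse 1 and bleo_2wk mouse 2. The count of 1 of 18 is near the share of all genes called in either direction, 5.04%.

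Interferon-gamma itself was hardly read. The normalized count of Ifng was 0 to 5.71 in saline, 0.96 to 9.8 at 2 weeks and 1.07 to 6.12 at 4 weeks, its mean over all mice was below the filter, and 0 of 6 recv_6wk mice had more than 3 reads. Without the filter its log2 fold change at 2 weeks was 0.89 (SE 0.34, adjusted p = 0.0539), which missed the threshold. Of 11 tested genes of the receptor and its signalling, 4 were called higher at 2 weeks (median 0.42; 3 without saline mouse 1 and bleo_2wk mouse 2) and 1 at 4 weeks (median 0.32), beside 9.3% and 10.5% of all genes, so that the count at 4 weeks is near the share of all genes. The transcription factor gene Batf2 rose by 1.68 and 1.20. Irf1, an interferon-induced activator of GBP genes, rose by 0.73 (adjusted p = 3.96e-06) at 2 weeks and had 0.40 at 4 weeks, under the fold threshold. Irf8 (0.73) and Nlrc5 (0.69) were called at 2 weeks. Socs1, the feedback inhibitor, had 0.12 (adjusted p = 0.698) and -0.18 (adjusted p = 0.527), and Ifngr1, the ligand-binding receptor chain, 0.42 and 0.51, which did not reach the fold threshold.

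Over all genes, 9.3% and 10.5% were called higher at 2 and 4 weeks. Of 14 signals that raise or carry interferon-gamma, 8 were called higher at 2 weeks (median 1.04) and 6 at 4 weeks (median 0.65). They included the transcription factors of interferon-gamma-producing lymphocytes Eomes (2.43 and 1.46), Stat4 (2.23 and 1.47) and, at 2 weeks, Tbx21 (1.53), the receptor gene Il18rap (1.61 and 1.39) and the cytokine gene Il27 (1.66 at 2 weeks). Il27 and Eomes were low in saline, with more than 3 reads in 2 and 5 of 10 mice. The largest value was that of Il18bp, the secreted inhibitor of interleukin 18, at 2.84 and 2.10. Il12b had 0.52 (adjusted p = 0.395) at 2 weeks and was called at 4 weeks (1.27), and Il15 and Il18 were not called.

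Of 19 chemokines and effectors induced by interferon-gamma, 14 were called higher at 2 weeks (median 1.05; 13 without saline mouse 1 and bleo_2wk mouse 2) and 11 at 4 weeks (median 0.78). The shares of all genes called higher were 9.3% and 10.5%. Cxcl9, a chemokine induced chiefly by interferon-gamma, ranged from 46.91 to 215.9 (median 63.49) in saline, from 240.1 to 1566 (median 397.9) at 2 weeks and from 52.79 to 208 (median 153.2) at 4 weeks. Its values at 2 weeks were all above those at 4 weeks, and it fell by 1.62 on the log2 scale between them (SE 0.27, adjusted p = 0.000264). Ubd likewise fell by 1.75 (adjusted p = 0.00419). Acod1, the itaconate-making enzyme of activated macrophages, rose by 4.67 and 4.63, Xaf1 by 2.00 and 1.92, Cxcl10 by 2.13 and 1.89, Ccl5 by 2.17 and 1.49 and Cybb, the phagocyte oxidase subunit, by 2.02 and 1.52. Nos2 had 0.02 (adjusted p = 0.943) and -0.16 (adjusted p = 0.59). In recv_6wk 2 of the 19 were called above saline, Nos2 (0.87, adjusted p = 0.0162) and the low Cxcl11 (1.18, adjusted p = 0.0224), named after their values were seen. In that comparison 5.04% of all genes were called in either direction. Ido1, the tryptophan-degrading enzyme, was below the filter, and without the filter it was higher at 2 weeks (1.47, SE 0.35, adjusted p = 0.00128) and had 0.73 (adjusted p = 0.135) at 4 weeks.

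All 24 type I interferon antiviral genes were called higher at both times, with medians of 2.67 and 2.47. Between 2 and 4 weeks limma, edgeR and DESeq2 called 0 of 24 (6 of 24 with an unadjusted limma p below 0.05). Over all genes limma called 0.863% lower between these times, so the count of 0 is near that share. The median difference of the 24 genes was -0.16 beside -0.47 for the 10 GTPase genes. Oas3 rose by 3.60 and 3.07, Irf7 by 3.34 and 2.97, Ifit1 by 3.06 and 3.04 and Ifit3 by 3.04 and 3.01. In recv_6wk 10 of 24 were still called above saline (9 without saline mouse 1 and bleo_2wk mouse 2), for example Ifi44 (1.17, adjusted p = 7.62e-05) and Ifit1 (1.08, adjusted p = 2.97e-05), and in recv_10wk 3 were: Usp18 (0.85), Ifit1 (0.68) and Ifi44 (0.65). Over all genes, 5.04% and 3.05% were called in either direction in these comparisons. The GTPase genes had 0 of 10 in either comparison. The difference between the lists was not tested. Among 18 autophagy and ubiquitin partners of the GTPases, 4 were called higher at both times, and these were inflammasome and antibody-receptor genes: Nlrp3 (1.87 and 1.52), Aim2 (1.31 and 1.30), Gsdmd (1.00 and 0.79) and Trim21 (0.82 and 0.65). At 2 and 4 weeks 9.3% and 10.5% of all genes were called higher. The core autophagy genes Atg3, Atg5, Atg7, Atg12 and Atg16l1, whose conjugation system directs GTPases to vacuoles, had log2 fold changes of 0.00 to 0.16 at 2 weeks and were not called.

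**Figure D5:**
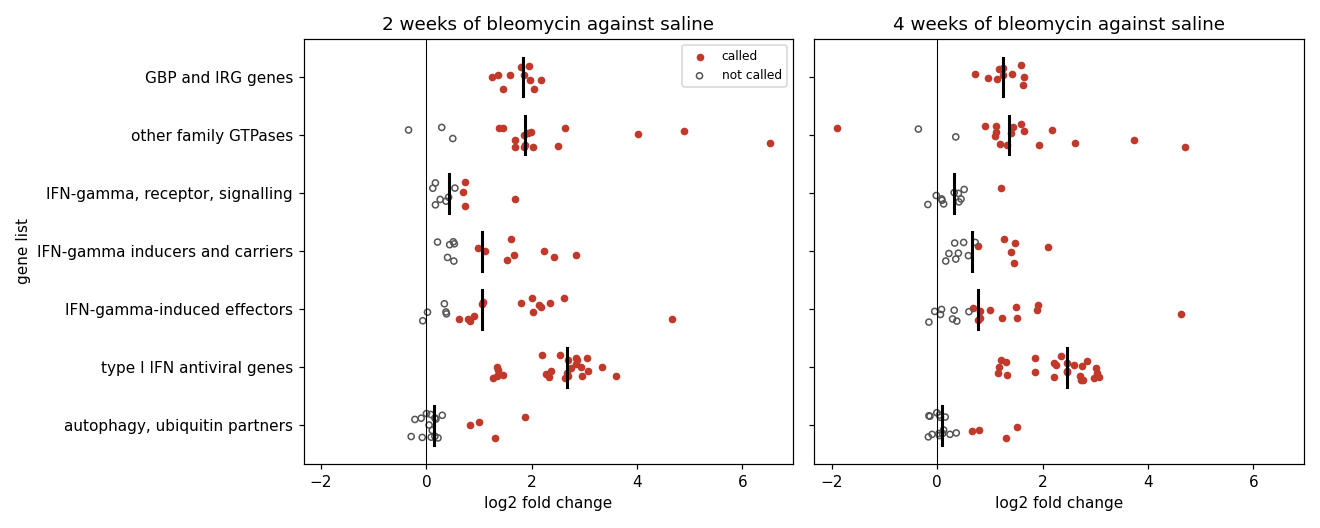
Log2 fold change against saline (x axis) of every tested gene of each list (rows) at 2 weeks (left) and 4 weeks (right) of bleomycin, with called genes in red, others open and list medians as black bars. The GTPase genes (medians 1.83 and 1.25) lie below the type I interferon antiviral genes (2.67 and 2.47) and above the receptor and signalling genes (0.42 and 0.32).

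Markers of other cells were counted in the same mice. At 2 and 4 weeks, when 9.3% and 10.5% of all genes were called higher, 7 and 5 of 8 NK cell markers, 8 and 8 of 10 macrophage markers, 6 and 4 of 6 neutrophil markers and 5 and 1 of 10 T cell markers were called higher, the last near the share of all genes. Without saline mouse 1 and bleo_2wk mouse 2 the counts at 2 weeks were 7 for macrophages and 4 for T cells. The summed NK cell markers ranged from 126.4 to 364.3 in saline, from 410.1 to 1440 at 2 weeks, from 281.5 to 525.6 at 4 weeks, from 186.1 to 251.7 in recv_6wk and from 171.7 to 257.8 in recv_10wk. The summed macrophage markers ranged from 9443 to 23920, 22630 to 50110, 21450 to 40820, 13990 to 20360 and 11300 to 16940 in the same order, the neutrophil markers from 97.89 to 217, 402.6 to 4843, 344.3 to 1478, 101.5 to 250.8 and 73.16 to 127.6, and the T cell markers from 400.6 to 1109, 621.4 to 1870, 604.1 to 1221, 562.3 to 859.2 and 419.6 to 771.6. No marker was without a read in any group. Of the 10 endothelial markers 3 were higher at each bleomycin time. In recv_6wk 6 were, when 5.04% of all genes were called in either direction. Without saline mouse 1 and bleo_2wk mouse 2, 1 endothelial marker was also called lower at 4 weeks. Of 9 keratinocyte markers limma, edgeR and DESeq2 called 0 at 2 weeks (4 with an unadjusted limma p below 0.05), and of 8 muscle markers limma and edgeR called 0 and DESeq2 1 (1 at an unadjusted p). At 4 weeks the keratinocyte gene Ivl was called lower (-1.01, adjusted p = 1.43e-08) and the muscle gene Myh1 higher (0.69, adjusted p = 0.0314), and without saline mouse 1 and bleo_2wk mouse 2 the muscle counts were 0 higher and 1 lower. At 2 and 4 weeks 3 and 1 of 8 fibroblast markers and 3 and 3 of 8 fat cell markers were lower, beside 7.43% and 7.37% of all genes, and without these mice the 4 week counts were 2 and 4. The part of these cells in the GTPase levels was not tested.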

How the data were processed

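Stranded mRNA libraries of skin biopsies were sequenced by the authors with 50-base paired reads, aligned to mm10 with STAR 2.4.0 and normalized with DESeq2 1.12.3. How reads were counted on genes, with which annotation and whether by strand, is not given in the sources used here. The deposited values (signal) are gene counts that the authors divided by 1 size factor per mouse. All were whole multiples of 1 read within 0.02, so reads were recovered (8509094 to 15285577 per mouse). Symbols came from GENCODE M21.

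Genes with a mean above 3 were tested with limma 3.58.1 (mean-variance trend, R 4.3.3) on log2(normalized count + 1), which understates changes of low genes, with all 5 groups in one fit and Benjamini-Hochberg adjustment over 17037 genes. The study's thresholds were kept (fold above 1.5, adjusted p below 0.05). edgeR 4.0.16 and DESeq2 1.42.0, the study's tool, were alternatives on recovered reads. Fits were tested on simulated data. No mice agreed within sampling noise (smallest chi-square per degree of freedom 5.06). The labels name no batches. Outside the 10 genes, those named are up to 4 called genes of each list with the largest changes at each bleomycin time, 4 interferon-gamma genes (Ifng, Irf1, Cxcl9 and Socs1) and those most alike in r, and other list genes were picked after their values were seen. The GTPase genes, lists and markers were chosen with earlier results of these data known. Jak2, Rnf213, Gm17757, Ly6g, Tchh and Krt85 were not analysed here. A further gene of the lists is not reported here.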

Additional observations from a re-analysis of the deposited data

Results flagged for a closer look

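Saline mouse 1 lay below the other 9 saline mice by a gap that Dixon's test flags at the 95% level in 3 of the 10 genes, with normalized counts of 34.58 for Gbp5, 121.6 for Gbp7 and 150.2 for Irgm1. In recv_10wk, mouse 2 lay above the other 7 mice in Irgm2, at a normalized count of 495.0. These were 4 flags in 50 tests. Chance flags about 1 in 20 separate tests. The genes varied together (median r of 0.88 in saline) and 3 flags fell on the same mouse, so the count cannot be set against that rate.

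The effect against saline differed between 4 and 2 weeks of bleomycin for Gbp3 (by -0.59 on the log2 scale) and Gbp6 (by -0.69) in the limma test of the difference itself, 2 of the 20 differences between times that were tested.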

How the results depend on the processing

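Across 13 alternatives the count of called genes stayed at 10 of 10 against saline at both bleomycin times and in both comparisons of recovery with bleo_4wk, and at 0 of 10 in recv_10wk against saline and between the recovery groups. Without a fold threshold, 1 gene (Gbp3) was called in recv_6wk against saline and 5 between 4 and 2 weeks. That last count, 2 in the report, was 1 under quantile normalization (Gbp3 at -0.57), 1 without bleo_2wk mouse 2 and 1 without both mice that stood apart (Gbp3 at -0.55). Of the values near zero, Gbp2 in recv_6wk against saline was -0.005 without saline mouse 1, 0.05 without bleo_2wk mouse 2 and -0.005 without both mice, and Gbp7 in recv_10wk against saline was -0.01 under quantile normalization, edgeR and DESeq2, -0.09 without saline mouse 1 and without both mice, and 0.01 without bleo_2wk mouse 2. The cause was not tested. Mice with the same replicate number were different animals and did not deviate together (median r -0.0022 over 78 pairs, -0.0042 over 690 pairs with different numbers). With the replicate number as a block, 10 genes were called at 2 weeks and 2 between 4 and 2 weeks, and no call on the 10 genes changed. No scaling moved the median of all genes by more than 0.02. Ifng and Ido1 were below the filter and were tested only without it, where Ido1 was higher at 2 weeks (1.47, adjusted p = 0.00128) and Ifng missed the threshold (0.89, adjusted p = 0.0539).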
